A study of Mus musculus with 10 samples.

Results

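The genes described here encode the parts of the sarcomere other than its myosins and troponins. They are 47 named genes of the thin filament, the Z-disc, titin and the M-band, the myosin-binding proteins, the titin-associated signalling and LIM proteins, the assembly and repair proteins, and the desmin network, out of 25700 genes in the count files. The list was set by gene name, with earlier results of these data known. The rule asked which genes had 10 or more counts in at least 5 of the 10 files. All 47 met it in all 10 files, with 137 to 301941 counts per mouse, and all 47 passed the filter on low counts.

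The counts came from tibialis anterior muscle, a fast muscle of the lower hind leg, of 5 Pax7Cre control mice and 5 mice titled miR-501KO. All 10 were C57BL/6 males aged 12 weeks, and all had received cardiotoxin, a venom toxin that destroys muscle fibres, 6 days before the muscle was taken. The control mice carry the Pax7 Cre allele and are labelled wild type, and the other mice are labelled miR-501 -/-. The study's design names them Pax7CremiR-501fl/Y, so that both groups carry Cre, which is driven from Pax7, a gene of muscle stem cells, and miR-501 is deleted in those cells and their progeny. Mature miR-501 is not measured by mRNA libraries and was not analysed here, so the labels could not be checked by the deleted gene. The labels name separate mice, numbered 1 to 5 in each group.

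In a sarcomere, actin filaments wound with tropomyosin are anchored at the Z-disc by alpha-actinin, capped at their free ends by tropomodulin and lengthened by leiomodin, and measured out by nebulin. Titin spans from the Z-disc to the M-band, where myomesins link the myosin filaments. During regeneration after injury new fibres assemble these structures again, starting from forms used in fetal muscle, such as cardiac actin, and moving to adult forms, such as skeletal actin.

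The microRNA deleted in the study acts through a seed, bases 2 to 8 of its mature strand. It is shown in RefSeq's sequence for miR-501-3p (GRCm38.p6, chrX:7241270-7241291, minus strand) with the seed in capitals, because it sets which members could be paired by it.
miR-501-3p: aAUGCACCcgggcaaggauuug
The complement of that seed, GGTGCAT, was searched on the transcript strand of every annotated 3' untranslated region. It was found in 3 of the 47 members (6.38%), against 1490 of 21020 counted protein-coding genes (7.09%). The 3 members and their sites on GRCm38, with the complement of the seed in capitals, were as follows.
Capn3 (chr2:120504584-120504590, plus strand): aaagacccagtaGGTGCATctccaccaaac
Lmod2 (chr6:24605260-24605266, plus strand): ggtgtaatccgaGGTGCATtgtgagctgtt
Myom1 (chr17:71126785-71126791, plus strand): gttagtagaggtGGTGCATttctgatagca
The log2 fold changes of these 3 genes, miR-501KO over Pax7Cre, were 0.065 ± 0.099 for the protease Capn3, -0.12 ± 0.13 for the leiomodin Lmod2 and 0.0099 ± 0.17 for the myomesin Myom1 (SE, 5 mice per group). None of the 3 passed the test, at unadjusted p = 0.521, 0.366 and 0.954. A match is a run of letters and does not show that the site is used.

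Each mouse had between 18609222 and 24753258 counts. The 47 genes held between 4.19 and 6.46% of the counts in Pax7Cre mice and between 4.99 and 5.77% in miR-501KO mice. Levels are given as CPM, counts scaled to a common library total with TMM factors, so that a gene can be compared between mice. 3 libraries stood apart for these genes. Pax7Cre mouse 2 was the highest of the 10 mice in 35 of the 47 (74.5%, against 23.3% of all genes tested), Pax7Cre mouse 4 was the lowest in 28 (59.6%, against 19.4%), and miR-501KO mouse 4 was the highest of its group in 35 (74.5%, against 24.2%). The same mice stood apart in the markers of mature fibres, whose 8 genes summed to 19922, 36589.5, 16868, 13784 and 22583 CPM in Pax7Cre mice 1 to 5 and 19815, 20015, 22718, 27538 and 24404 CPM in miR-501KO mice 1 to 5. All 8 were detected in every mouse, and Pax7Cre mouse 2 was highest and mouse 4 lowest in the sum. The 6 markers of regenerating fibres summed to 2241 to 3415 CPM in Pax7Cre and 2456 to 3244 CPM in miR-501KO mice, with Pax7Cre mouse 2 lowest. RNA of both marker lists was therefore present, and the sums do not show whether it came from separate kinds of fibre. The sums for macrophages (4917 to 6359.5 and 4962 to 5846 CPM, 6 genes), fibro-adipogenic cells (13605 to 18618 and 14559 to 17665 CPM, 5 genes), endothelium (518 to 642 and 516 to 659 CPM, 4 genes) and smooth muscle (539 to 984 and 759.6 to 1021 CPM, 5 genes) overlapped between the groups, Pax7Cre first. Acta2 and Lmod1 of the smooth muscle markers are also among the other sarcomere genes given at the end. Their part in the results was not tested. In whole muscle, fewer fibres of a kind and less RNA per fibre cannot be told apart.

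Per base of exon the 47 genes spanned a wide range of levels. RPKM here divides the CPM by the length of all annotated exons joined, so a gene with long isoforms that are little used has a low RPKM. Acta1, the actin of adult skeletal muscle, was the highest, with 6807 ± 2251 RPKM in Pax7Cre mice and 7205 ± 1141 in miR-501KO mice (SD, n = 5). Next came the cardiac actin Actc1, at 1833 ± 367 and 2082 ± 392 RPKM, and the beta tropomyosin Tpm2, at 1799 ± 442 and 1805 ± 168 RPKM, which did not differ from each other beyond their spread. The alpha tropomyosin Tpm1 followed at 1299 ± 458 and 1343 ± 122 RPKM and desmin, Des, at 750.0 ± 136 and 797 ± 69.4 RPKM. The thin filament thus held the 4 highest genes. At the other end stood the calsarcin Myoz3, at 4.13 ± 1.97 and 4.71 ± 0.922 RPKM, Obsl1 at 11.7 ± 1.92 and 11.6 ± 1.01 RPKM and Synm at 11.8 ± 6.73 and 13.4 ± 3.59 RPKM. Ttn, the longest gene of the list with 116825 bases of exon, was at 17.6 ± 4.63 and 20.0 ± 1.48 RPKM.

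**Figure D1:**
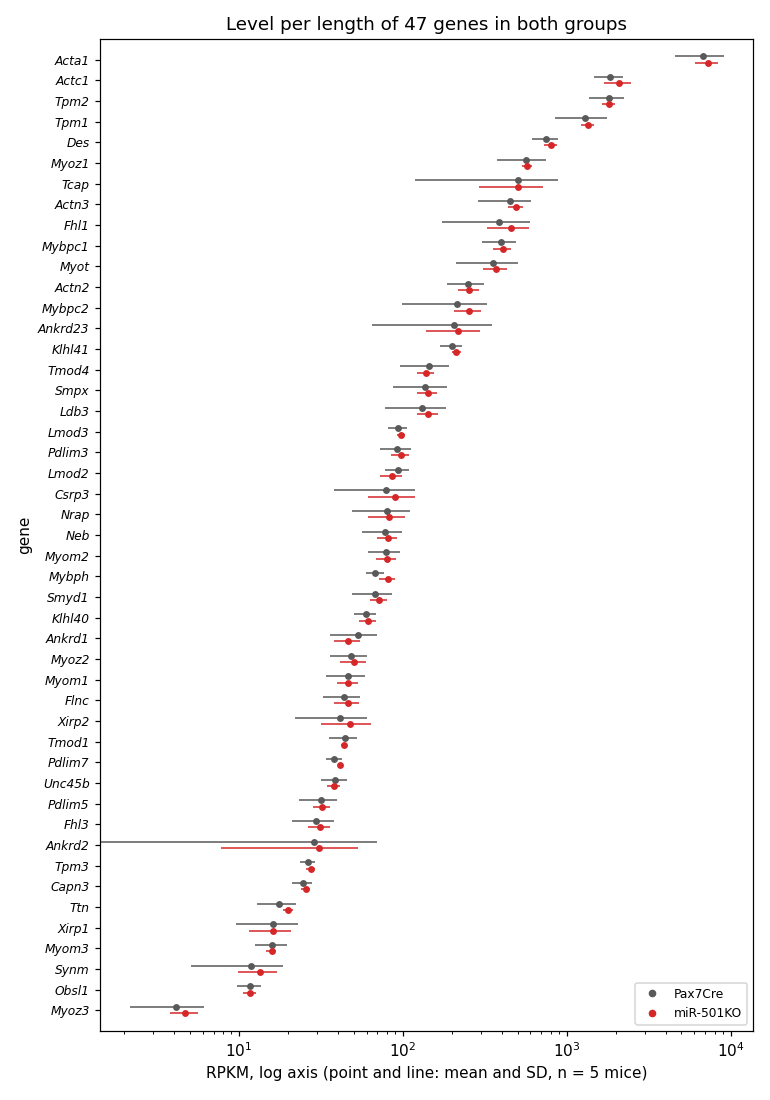
Mean and SD of the RPKM of the 47 genes (log axis) in 5 Pax7Cre mice (grey) and 5 miR-501KO mice (red), ordered by level. The order is led by Acta1, Actc1, Tpm2 and Tpm1 and ends with Myoz3, the means of the groups lie close together for each gene, and the Pax7Cre lines are the longer for nearly all genes (Ankrd2's lower end falls outside the axis).

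The main comparison asked whether muscle regenerating from cells without miR-501 held other amounts of these transcripts than control muscle. Of the 47 genes, 1 was higher in miR-501KO mice at an unadjusted p under 0.05, the myosin-binding protein gene Mybph, and 0 were lower. Over all 14410 genes tested, 55 (0.382%) were higher and 96 (0.666%) lower at that threshold. Both directions together made 1.05% of genes, under the share of 0.05 that the threshold would give on average with no difference. The 1.05% became 3.12% without Pax7Cre mouse 2 and 3.24% without Pax7Cre mouse 4. With Benjamini-Hochberg adjustment in edgeR, 0 members and 0% of all genes passed 0.05, and the smallest adjusted p was 1.00. By DESeq2, too, 0 genes passed after adjustment, and Mybph was the member at an unadjusted p under 0.05. In 0 of the 47 genes did all mice of a group lie on the same side of all mice of the other, which held for 0.139% of all genes tested. Most fitted differences were small and above 0. The log2 fold change was above 0 in 39 of the 47 (83.0%, against 47.9% of all genes), with a median of 0.065 (all genes -0.0042) and a range from -0.18 for Ankrd1 to 0.25 for Mybpc2. These genes vary together from mouse to mouse, so their shared sign is not 47 separate observations. The list was also chosen with earlier results of these data known. The 95% confidence interval held 0 in 46 of the 47. Its length to either side had a median of 0.38 on the log2 scale and was 0.19 at its narrowest. In each gene a difference smaller than that gene's length could not be told from 0.

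**Figure D2:**
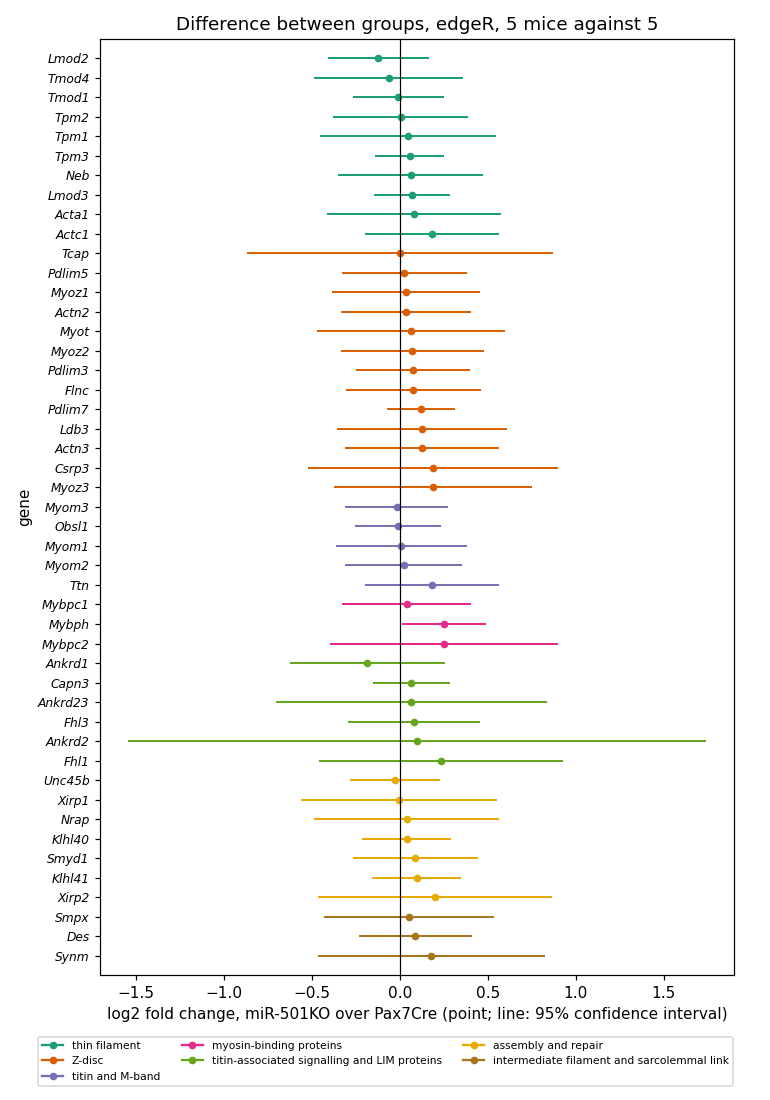
Log2 fold change of each of the 47 genes, miR-501KO over Pax7Cre (point), with its 95% confidence interval from edgeR (line), coloured by part of the sarcomere, 5 mice per group. Every interval crosses 0 except that of Mybph, and that of Ankrd2 is the widest, from -1.54 to 1.73.

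The levels of the members varied widely between mice of a group. The highest mouse had at least 2-fold the level of the lowest in 26 of the 47 genes. Within Pax7Cre the highest mouse had a median of 2.08-fold the lowest, and within miR-501KO 1.39-fold. The SD of log2 CPM was larger in Pax7Cre for 46 of the 47 (all genes 79.2%), with a median of 0.39 against 0.20. Without Pax7Cre mouse 2 it was larger in 38 of the 47 (80.9%, all genes 69.7%). The count of genes past the threshold also depended on that mouse. Without it, 9 members were higher at an unadjusted p under 0.05 (all genes 1.84%), namely Ankrd23, Fhl1, Mybpc2, Synm, Ldb3, Tcap, Myoz3, Actn3 and Ankrd2, Mybph was not among them, and the median log2 fold change was 0.18. Without Pax7Cre mouse 4, the lowest, 1 member was higher (all genes 1.57%), the median was 0.0063 and 24 of the 47 were above 0. Without miR-501KO mouse 4 the median was 0.0028 and 26 of the 47 were above 0. Without both Pax7Cre mice 2 and 4, an alternative chosen after seeing the data, 7 members were higher (all genes 1.91%) and 1 was lower (all genes 1.73%). No adjusted p was under 0.05 in any of these fits.

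**Figure D3:**
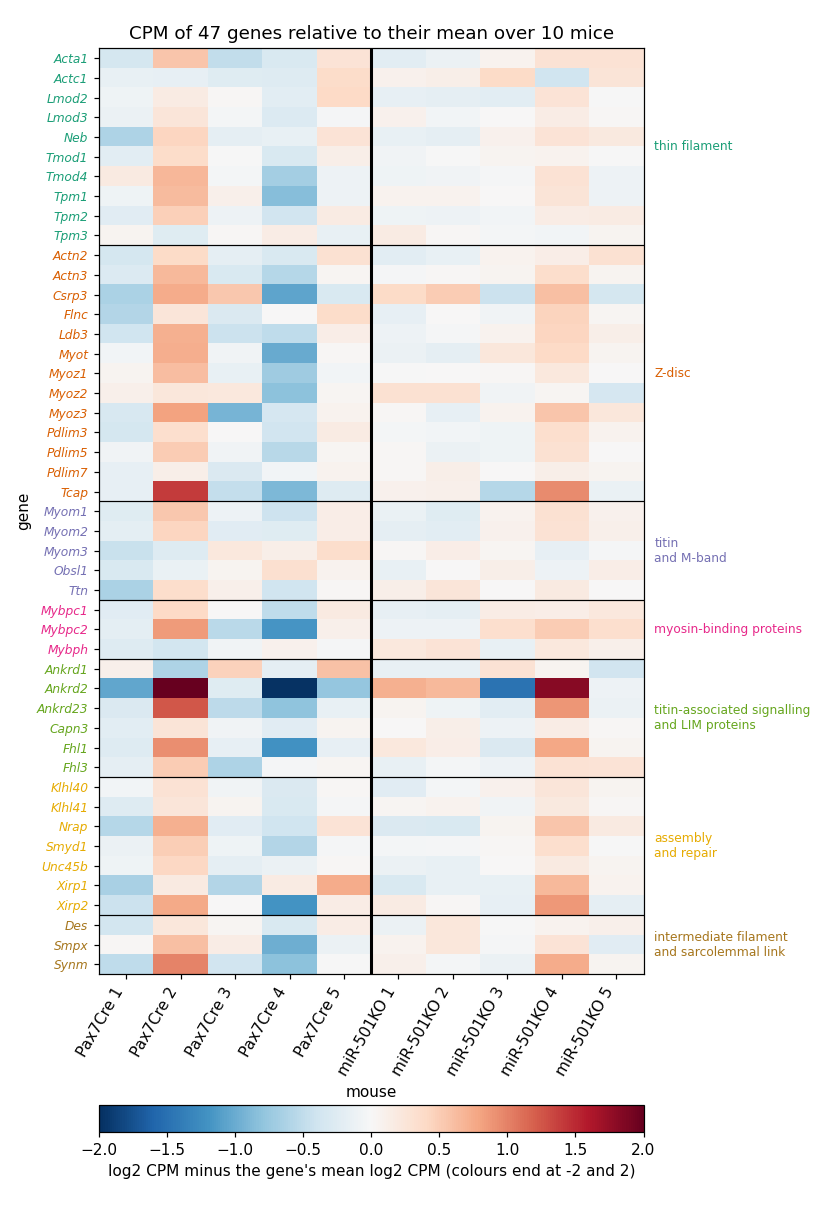
Log2 CPM of each of the 47 genes in each of the 10 mice, minus the gene's mean over the mice (colour), with genes in rows grouped by part and the groups parted by the thick line. Pax7Cre mouse 2 and miR-501KO mouse 4 are red in most rows, and Pax7Cre mouse 4 is blue in most rows. Rows such as Ankrd1, Tpm3, Myom3, Mybph, Actc1 and Obsl1 depart from this pattern in some of these mice.

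In the thin filament, 7 of 10 genes had a log2 fold change above 0 (median 0.053) and none passed the test. The median was -0.031 without Pax7Cre mouse 4 and 0.14 without Pax7Cre mouse 2. Acta1, whose product forms the adult thin filament, stood at 8224, 15419, 7422, 8490.0 and 12725 CPM in Pax7Cre mice 1 to 5 and 9022, 9655, 11028, 12831 and 12796 CPM in miR-501KO mice 1 to 5. The highest and the lowest values were both from Pax7Cre mice, and the groups overlapped, with a log2 fold change of 0.082 ± 0.23 (SE, unadjusted p = 0.723). Actc1, the actin of heart and of fetal and regenerating muscle, was at 2796, 2789, 2624, 2603 and 4014 CPM in the Pax7Cre mice and 3322, 3394, 4057, 2359 and 3711 CPM in the miR-501KO mice, in the order of their numbers. Its highest and lowest mice were both miR-501KO, and the log2 fold change was 0.18 ± 0.17 (unadjusted p = 0.310), which was 0.11 without miR-501KO mouse 3 and 0.32 without Pax7Cre mouse 5. Acta1 and Actc1 share 86.3% of their 1131 coding bases, but the longest stretch in which they are identical is 29 bases, and no window of 100 bases, the read length, is the same in both. Each overlaps another gene on the opposite strand (Gm20388 and A530058N18Rik), whose reads cannot be told apart where the counting used no strand. Neb, for nebulin, which runs along the thin filament, was at 1352, 2768, 1820.3, 1858 and 2505 CPM for Pax7Cre and 1862, 1819.9, 2198, 2506 and 2368 CPM for miR-501KO mice 1 to 5, with a log2 fold change of 0.062 ± 0.19. Pax7Cre mouse 1 was lowest and mouse 2 highest.

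The tropomyosins, which lie along actin and gate its contact with myosin, had fitted differences near 0. Tpm1 was at 7869, 12866, 8962, 4615 and 7799 CPM in Pax7Cre mice 1 to 5 and 8755, 8718, 8415, 9921 and 7739 CPM in miR-501KO mice 1 to 5. Tpm2 was at 4409.8, 7185, 4829, 3948 and 5797 CPM in the Pax7Cre mice and 4884, 4811, 4997, 5755 and 5807 CPM in the miR-501KO mice. In both genes Pax7Cre mouse 2 was highest and mouse 4 lowest. The log2 fold changes were 0.048 ± 0.23 and 0.0046 ± 0.17, with a 95% confidence interval from -0.37 to 0.38 for Tpm2. Tpm3, whose products include the alpha tropomyosin of slow fibres, ran the other way among the controls. It was at 169, 138, 165, 181 and 147 CPM in the Pax7Cre mice and 181, 166, 159, 157 and 169 CPM in the miR-501KO mice. Counts per gene do not part its isoforms. Here Pax7Cre mouse 2 was the lowest of all 10 mice. Its log2 fold change was 0.057 ± 0.088 (unadjusted p = 0.526), and without that mouse 0.0057, against 0.10 without Pax7Cre mouse 4.

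The tropomodulins cap the pointed end of actin. Tmod1 was at 148, 222, 172, 139 and 188 CPM in the Pax7Cre mice and 164, 172, 178, 181 and 170.4 CPM in the miR-501KO mice. Tmod4, the form of adult skeletal muscle, was at 268, 373, 229, 147 and 221 CPM in the Pax7Cre mice and 221, 224, 232, 288 and 219.5 CPM in the miR-501KO mice. The miR-501KO mice lay inside the range of the controls for both, and the log2 fold changes were -0.0072 ± 0.12 and -0.063 ± 0.19. The leiomodins start and lengthen actin filaments at that end. Lmod2 was at 164, 196, 178, 151 and 232 CPM in the Pax7Cre mice and 157, 154, 150.4, 212 and 174 CPM in the miR-501KO mice. Lmod3 was at 195, 249.6, 204, 175 and 208 CPM in the Pax7Cre mice and 224, 202, 211, 234 and 213 CPM in the miR-501KO mice. Lmod2 had the most negative log2 fold change of the thin filament, -0.12 ± 0.13 (unadjusted p = 0.366), and Lmod3 had 0.071 ± 0.096 (unadjusted p = 0.475), with groups that overlapped in both.

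In the Z-disc, all 13 genes had a log2 fold change above 0 (median 0.075), none passed the test, and without Pax7Cre mouse 4 the median was -0.0030, against 0.23 without Pax7Cre mouse 2. The alpha-actinins tie the thin filaments of neighbouring sarcomeres together. Actn2 was at 736, 1231, 829, 758 and 1161 CPM in Pax7Cre mice 1 to 5 and 815, 847, 989, 1027 and 1156 CPM in miR-501KO mice 1 to 5. Actn3, the form of fast fibres, was at 1091, 2071, 1073, 888 and 1363 CPM in the Pax7Cre mice and 1307, 1346, 1379, 1684 and 1375 CPM in the miR-501KO mice. Pax7Cre mouse 2 was the highest in both and the groups overlapped, with log2 fold changes of 0.036 ± 0.17 and 0.13 ± 0.20. Without that mouse the log2 fold change of Actn3 was 0.36 (unadjusted p = 0.0172), and it was 0.019 without Pax7Cre mouse 4.

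The calsarcins bind alpha-actinin and the phosphatase calcineurin. Myoz1, of fast fibres, was at 1093, 1613, 947, 644 and 1006 CPM in the Pax7Cre mice and 1039, 1059, 1067, 1219 and 1050.0 CPM in the miR-501KO mice. Myoz2, of slow fibres and heart, was at 177, 194, 192, 93.2 and 169 CPM in the Pax7Cre mice and 204, 204, 158, 170.0 and 131 CPM in the miR-501KO mice. For Myoz1 the 5 miR-501KO mice lay within 1.17-fold of each other and the Pax7Cre mice within 2.50-fold. The log2 fold changes were 0.035 ± 0.19 and 0.073 ± 0.18. Myoz3, the least abundant member, was at 11.6, 25.3, 7.55, 11.4 and 15.2 CPM in the Pax7Cre mice and 14.6, 12.9, 15.2, 21.2 and 17.0 CPM in the miR-501KO mice, with a log2 fold change of 0.19 ± 0.26 (unadjusted p = 0.471), which became 0.50 (unadjusted p = 0.0162) without Pax7Cre mouse 2 and 0.036 without Pax7Cre mouse 3.

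Tcap, for telethonin, which binds the Z-disc end of titin, ranged 4.94-fold among Pax7Cre mice and 2.85-fold among miR-501KO mice, and its group means were almost equal (475 ± 363 and 476 ± 199 CPM, SD, n = 5). Without Pax7Cre mouse 2 its log2 fold change went from 0.0030 to 0.59 (unadjusted p = 0.0330), and it was -0.27 without miR-501KO mouse 4. Csrp3, for the muscle LIM protein, was at 134, 347, 303, 100.2 and 168 CPM in the Pax7Cre mice and 269.8, 295, 154, 316 and 163 CPM in the miR-501KO mice. Its mice spread over 3.46-fold with full overlap, and the log2 fold change was 0.19 ± 0.32 (unadjusted p = 0.572), which was 0.010 without Pax7Cre mouse 4 and 0.44 without Pax7Cre mouse 2. The PDZ and LIM adaptor Ldb3 had a log2 fold change of 0.12 ± 0.22, which was 0.38 (unadjusted p = 0.0221) without Pax7Cre mouse 2 and 0.024 without Pax7Cre mouse 4. Pdlim7, a relative of Ldb3, had the smallest unadjusted p of the Z-disc, 0.192, at group means of 185 ± 20.8 and 201 ± 6.64 CPM. The actin-binding Myot (myotilin) and Flnc (filamin C), with Pdlim3 and Pdlim5, had log2 fold changes of 0.065, 0.078, 0.075 and 0.025.

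For titin and the M-band, 3 of 5 genes were above 0 (median 0.0099) and none passed the test, with a median of -0.048 without Pax7Cre mouse 1 and 0.15 without Pax7Cre mouse 2. Ttn was at 1396, 2743, 2306, 1632 and 2199 CPM in Pax7Cre mice 1 to 5 and 2333, 2557, 2171, 2451 and 2164 CPM in miR-501KO mice 1 to 5. The miR-501KO mice lay within 1.18-fold of each other, inside the range of the controls, and the log2 fold change was 0.18 ± 0.17 (unadjusted p = 0.306), which was 0.073 without Pax7Cre mouse 1 and 0.31 without Pax7Cre mouse 2. The myomesin of fast fibres, Myom2, was at 606, 934, 594, 586 and 755 CPM in the Pax7Cre mice and 612, 596, 737, 841 and 744 CPM in the miR-501KO mice. Myom3, which is found in slow fibres, was at 70.0, 79.6, 110.1, 103 and 121 CPM in the Pax7Cre mice and 97.0, 104, 97.4, 85.1 and 93.8 CPM in the miR-501KO mice. Pax7Cre mouse 2 was the highest for Myom2, while for Myom3 just Pax7Cre mouse 1 was lower than it. Their log2 fold changes were 0.023 ± 0.15 and -0.017 ± 0.13, that of Myom1 was 0.0099 ± 0.17, and that of Obsl1, an obscurin relative of the M-band, was -0.0088 ± 0.11.

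The myosin-binding proteins held the largest log2 fold changes of the list, with a median of 0.25 over 3 genes, all above 0. That median was 0.066 without Pax7Cre mouse 4, where Mybpc1 was at -0.065, and 0.28 without Pax7Cre mouse 5. Mybph (chr1:134193448-134201232 on GRCm38, plus strand), for the myosin-binding protein H of the thick filament, was at 143, 132, 163, 182 and 169 CPM in Pax7Cre mice 1 to 5 and 197, 207, 154, 197 and 184 CPM in miR-501KO mice 1 to 5. In miR-501KO 4 of 5 mice lay above every Pax7Cre mouse, and mouse 3 lay inside the control range. The group means were 158 ± 20.0 and 188 ± 20.8 CPM (SD, n = 5). The log2 fold change was 0.25 ± 0.11, at an unadjusted p of 0.0363 in edgeR, which was 1.00 after adjustment. Mybph was among the members in which Pax7Cre mouse 2 was lowest. The p rose above 0.05 on leaving out Pax7Cre mouse 1 or 2 or miR-501KO mouse 1, 2, 4 or 5, while the log2 fold change ran from 0.19 to 0.31 over the 10 such fits. Adora1 overlaps Mybph on the opposite strand.

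Mybpc2, the myosin-binding protein C of fast fibres, had the largest fitted difference and a wide spread, at 686, 1424, 539, 347 and 839.5 CPM in the Pax7Cre mice and 732, 733, 992, 1118 and 990.0 CPM in the miR-501KO mice. The 5 miR-501KO mice all lay inside the control range, from Pax7Cre mouse 4 to mouse 2, and the log2 fold change was 0.25 ± 0.30 (unadjusted p = 0.412). Without Pax7Cre mouse 2 it was 0.60 (unadjusted p = 0.0168), and without mice 2 and 4 0.41 (unadjusted p = 0.0335), but it was 0.066 without Pax7Cre mouse 4. Mybpc1, listed as the slow form, was at 1531, 2349.8, 1807, 1257 and 2017 CPM in the Pax7Cre mice and 1592, 1585, 1993, 1969 and 2064 CPM in the miR-501KO mice, with a log2 fold change of 0.039 ± 0.17. As for Mybpc2, Pax7Cre mouse 2 was the highest of all mice and Pax7Cre mouse 4 the lowest. The Pax7Cre mean of Mybpc1 in this fast muscle, 1792 CPM, was above the 767 CPM of Mybpc2.

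**Figure D4:**
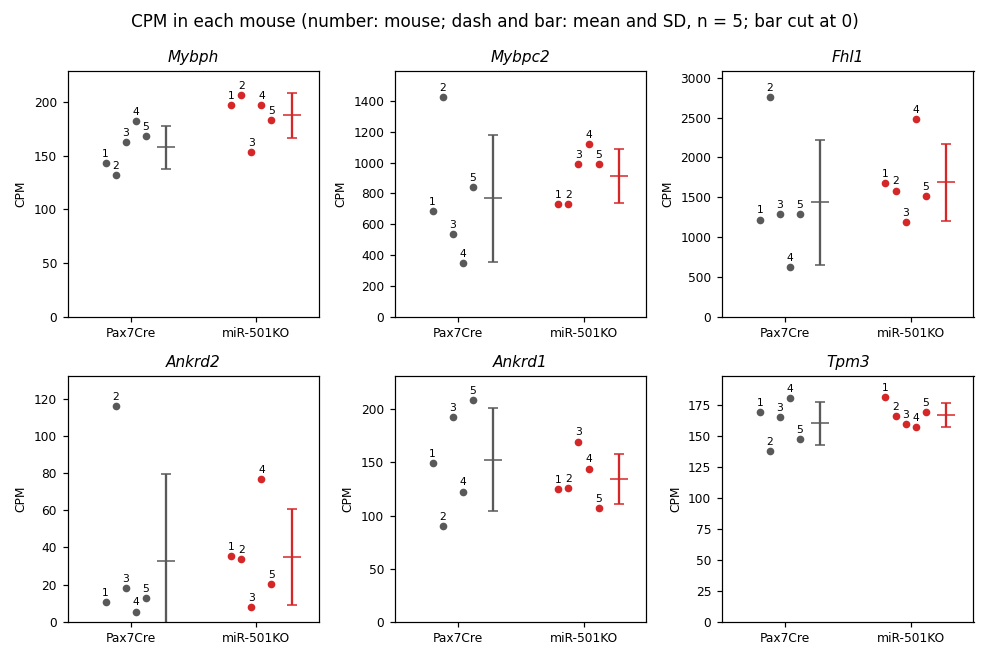
CPM of 6 genes in each mouse (points, with the mouse number), with the mean and SD of each group beside them, n = 5 and axes from 0. For Mybph 4 of the 5 miR-501KO mice lie above all Pax7Cre mice, and Pax7Cre mouse 2 is far above its group for Mybpc2, Fhl1 and Ankrd2 and at the bottom for Mybph, Ankrd1 and Tpm3.

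Among the titin-associated signalling and LIM proteins, 5 of 6 genes were above 0 (median 0.074) and none passed the test. This median moved to -0.080 without miR-501KO mouse 4 and 0.41 without Pax7Cre mouse 2. The 3 muscle ankyrin repeat proteins bind titin and respond to stretch. Ankrd2, the form of slow fibres, was the most variable of the 47, at 10.5, 116, 18.3, 5.50 and 12.6 CPM in Pax7Cre mice 1 to 5 and 35.4, 34.0, 7.75, 76.7 and 20.3 CPM in miR-501KO mice 1 to 5. Pax7Cre mouse 2 held 21.1-fold the level of Pax7Cre mouse 4, and the log2 fold change was 0.098 ± 0.76, which became 1.57 (unadjusted p = 0.00868) without mouse 2 and -0.41 without miR-501KO mouse 4. Ankrd1, which is raised in regenerating and stressed muscle, was at 149, 90.5, 192, 123 and 208 CPM in the Pax7Cre mice and 125, 126, 169.7, 144 and 107 CPM in the miR-501KO mice. It was the most negative of the 47, at a log2 fold change of -0.18 ± 0.20 (unadjusted p = 0.376), which was -0.046 without Pax7Cre mouse 5 and -0.33 without Pax7Cre mouse 2. Without Pax7Cre mice 2 and 4 together it was -0.45 (unadjusted p = 0.00788). Ankrd23 had group means of 557 ± 381 and 583 ± 212 CPM and a log2 fold change of 0.067 ± 0.35, which was 0.58 (unadjusted p = 0.0173) without Pax7Cre mouse 2 and -0.18 without miR-501KO mouse 4.

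The LIM protein gene Fhl1 was at 1218, 2753, 1291, 624 and 1288 CPM in the Pax7Cre mice and 1672, 1583, 1184, 2485 and 1513 CPM in the miR-501KO mice. Its values from Pax7Cre mouse 2 and miR-501KO mouse 4 were the 2 highest and that from Pax7Cre mouse 4 the lowest. The log2 fold change was 0.23 ± 0.32 (unadjusted p = 0.474), which was 0.61 (unadjusted p = 0.0221) without Pax7Cre mouse 2 and 0.043 without Pax7Cre mouse 4. Fhl3 had 0.081 ± 0.17 and the calpain gene Capn3, which overlaps Ganc on the same strand, 0.065 ± 0.099.

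Of the assembly and repair genes, 5 of 7 were above 0 (median 0.040) and none passed the test, and the median was -0.024 without miR-501KO mouse 4 and 0.18 without Pax7Cre mouse 2. Nrap, which is found in growing myofibrils before the Z-disc matures, was at 288, 704, 367, 325 and 519 CPM in the Pax7Cre mice and 352, 349, 444, 632 and 487 CPM in the miR-501KO mice. Xirp1, an actin-binding protein of repair sites, was at 57.6, 103, 60.4, 101 and 152 CPM in the Pax7Cre mice and 73.1, 81.3, 81.5, 142 and 94.9 CPM in the miR-501KO mice. Pax7Cre mouse 1 was the lowest in both, and the groups overlapped, with log2 fold changes of 0.039 ± 0.24 and -0.0040 ± 0.26. Xirp1 overlaps Cx3cr1, a gene of macrophages, on the same strand. Xirp2, its relative, was at 369, 842, 498, 218 and 547 CPM in the Pax7Cre mice and 556, 505, 443, 901 and 439 CPM in the miR-501KO mice. miR-501KO mouse 4 was highest, Pax7Cre mouse 4 was lowest, and the log2 fold change was 0.20 ± 0.30 (unadjusted p = 0.520). Smyd1 and Unc45b, which assist the folding and assembly of myosin, had log2 fold changes of 0.089 ± 0.16 and -0.027 ± 0.12, and Klhl40 and Klhl41, which stabilise thin filament proteins, 0.040 ± 0.11 and 0.096 ± 0.11.

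Desmin forms the filaments that link Z-discs of neighbouring myofibrils. Des was at 2226, 3373, 2963, 2338 and 3178 CPM in the Pax7Cre mice and 2655, 3352, 2854, 3018 and 3088 CPM in the miR-501KO mice, with Pax7Cre mouse 2 highest and mouse 1 lowest, and a log2 fold change of 0.088 ± 0.15 (unadjusted p = 0.556), which was 0.015 without Pax7Cre mouse 1 and 0.16 without Pax7Cre mouse 2. Synm, whose product joins desmin filaments, had a log2 fold change of 0.18 ± 0.30, which was 0.58 (unadjusted p = 0.00725) without Pax7Cre mouse 2 and 0.0019 without miR-501KO mouse 4. Smpx, a small protein of the sarcolemmal attachments, had 0.054 ± 0.22. All 3 were above 0 (median 0.088) and none passed the test, with a median of 0.0028 without miR-501KO mouse 4 and 0.24 without Pax7Cre mouse 2.

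Fetal and adult genes were set against each other next. The 5 genes listed as fetal or regenerating (Actc1, Ankrd1, Csrp3, Nrap and Xirp1) had a median log2 fold change of 0.039. The 8 listed as adult or fast (Acta1, Actn3, Myoz1, Mybpc2, Tmod4, Tcap, Myom2 and Capn3) had 0.050, and the 5 listed as slow (Myoz2, Mybpc1, Myom3, Tpm3 and Ankrd2) 0.057. The 8 were listed together as genes of adult muscle, and Acta1, Tcap and Capn3 among them are not particular to fast fibres, so the list is no measure of fast fibres against slow ones. The fetal and slow lists have limits as well. Csrp3 and Nrap of the fetal list were highest in Pax7Cre mouse 2, as was the sum of the mature fibre markers. In the slow list Mybpc1 was highest in that mouse and Tpm3 lowest, so neither list is read as a measure of a kind of fibre. None of the 18 passed the test, and leaving out 1 mouse at a time moved the medians across 0, over -0.11 to 0.16 for the fetal, -0.0090 to 0.25 for the adult or fast and -0.065 to 0.13 for the slow genes. The lowest came without miR-501KO mouse 4, Pax7Cre mouse 3 and Pax7Cre mouse 4, in that order, and the highest without Pax7Cre mouse 2 in all 3 lists. The place of single mice in each list is given as a description. Pax7Cre mouse 2 was the highest of the 10 mice in 8 of 8 adult or fast genes, 2 of 5 fetal and 2 of 5 slow genes, and Pax7Cre mouse 4 was the lowest in 7 of 8, 1 of 5 and 3 of 5. miR-501KO mouse 4 was the highest of its group in 8 of 8, 3 of 5 and 1 of 5. The adult or fast genes summed to 12454, 23099.5, 11225, 11435 and 17392 CPM in Pax7Cre mice 1 to 5 and 13506, 14201, 15835, 18930.4 and 17687 CPM in miR-501KO mice 1 to 5, which Acta1 dominates. The fetal genes summed to 3426, 4034, 3547, 3252 and 5061 CPM in Pax7Cre mice 1 to 5 and 4142, 4245, 4906, 3593 and 4563 CPM in miR-501KO mice 1 to 5, most of it Actc1, with Pax7Cre mouse 5 highest.

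Because both genes of a pair come from the same muscle, the ratio within a mouse was also taken for 7 pairs on the log2 CPM scale. In 6 of them the fetal, slow or broader form was set over the adult or fast form, and in the other, Lmod2 to Lmod3, the 2 leiomodins have no such order. Actc1 to Acta1 was -1.56, -2.47, -1.50, -1.71 and -1.66 in Pax7Cre mice 1 to 5 and -1.44, -1.51, -1.44, -2.44 and -1.79 in miR-501KO mice 1 to 5. Pax7Cre mouse 2 and miR-501KO mouse 4 had the least cardiac actin for their skeletal actin, and the other 8 mice were higher. The group means were -1.78 ± 0.39 and -1.72 ± 0.43 (SD, n = 5), a difference of 0.054, which was -0.12 without Pax7Cre mouse 2 and 0.23 without miR-501KO mouse 4. Per base of exon the mean was -1.85 in Pax7Cre and -1.80 in miR-501KO.

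Myom3 to Myom2 was -3.11, -3.55, -2.43, -2.51 and -2.65 in Pax7Cre mice 1 to 5 and -2.66, -2.52, -2.92, -3.30 and -2.99 in miR-501KO mice 1 to 5. The same pair of mice was lowest here as for the actins. The difference of the means was -0.027, under the pooled SD of 0.40, and it was -0.20 without Pax7Cre mouse 2 and 0.080 without miR-501KO mouse 4. Mybpc1 to Mybpc2 was 1.16, 0.72, 1.75, 1.86 and 1.26 in Pax7Cre mice 1 to 5 and 1.12, 1.11, 1.01, 0.82 and 1.06 in miR-501KO mice 1 to 5. The group means were 1.35 ± 0.46 and 1.02 ± 0.12, and the difference of -0.33 was just under the pooled SD of 0.34. It was -0.20 without Pax7Cre mouse 4 and -0.48 without Pax7Cre mouse 2. Lmod2 to Lmod3 was -0.25, -0.35, -0.20, -0.22 and 0.16 in Pax7Cre mice 1 to 5 and -0.52, -0.39, -0.49, -0.15 and -0.29 in miR-501KO mice 1 to 5. It was the single pair whose difference, -0.20, exceeded the pooled SD (0.17), and its groups overlapped as did those of the other 6 pairs. Without Pax7Cre mouse 5 that difference was -0.11. The differences of the means for the pairs of Actn2 to Actn3, Myoz2 to Myoz1 and Tmod1 to Tmod4 were -0.13, 0.0053 and 0.018, each under its pooled SD. Leaving out 1 mouse moved the first to -0.21 without Pax7Cre mouse 2 and -0.078 without Pax7Cre mouse 4, the next to -0.092 without Pax7Cre mouse 2 and 0.098 without Pax7Cre mouse 3 and the last to -0.080 without Pax7Cre mouse 1 and 0.12 without Pax7Cre mouse 4.

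**Figure D5:**
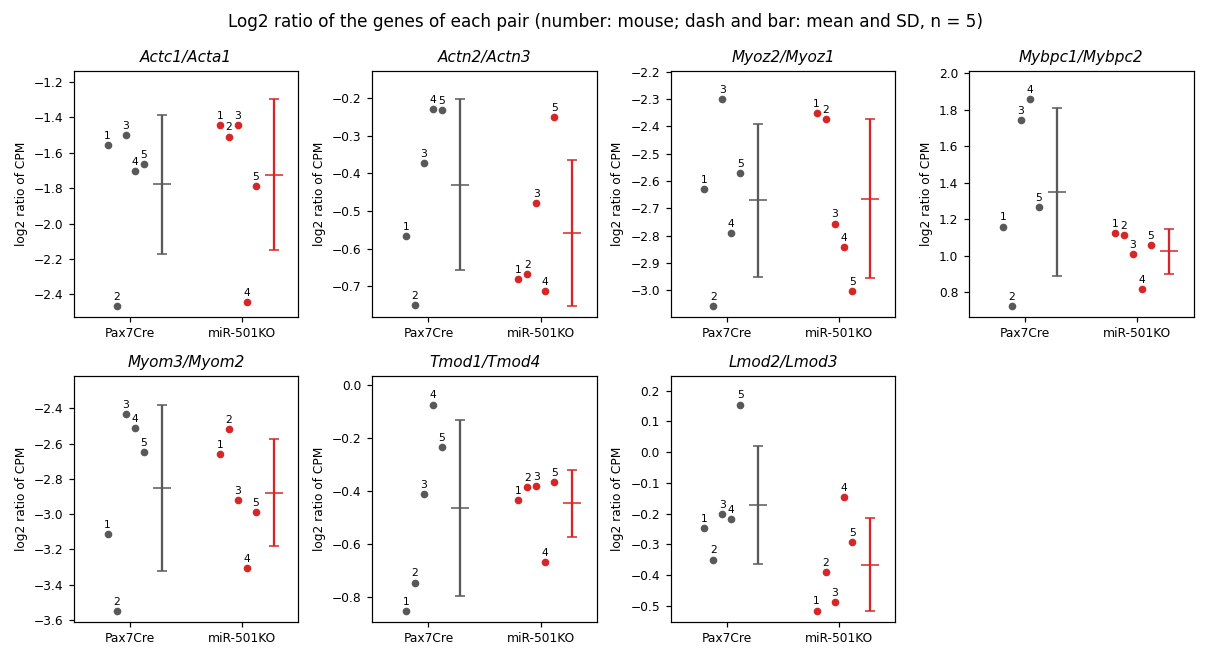
Log2 ratio of the CPM of 2 genes in each mouse for 7 pairs (points, with the mouse number), with the mean and SD of each group beside them, n = 5. The groups overlap in every pair, and Pax7Cre mouse 2 is the lowest of the 10 mice in 5 of the 7.

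The start regions of both actin genes, of Mybph (the member with an unadjusted p under 0.05), of Ankrd1 (the lowest log2 fold change) and of Ankrd2 (the widest spread between mice) are shown for the motifs in them. RefSeq's windows (GRCm38.p6, 250 bases before to 50 after the start) were given for 38 of the 47 members. On either strand, the CArG box, the site of serum response factor, was in 5 of the 38 (13.2%, all genes 1.81%), a MEF2 site in 6 (15.8%, all genes 3.70%), CAGCTG, the E-box that myogenic factors use, in 14 (36.8%, all genes 18.3%), and CATTCC, the MCAT box of TEAD factors, in 10 (26.3%, all genes 16.6%). Capitals mark these 4 motifs, none of which overlap in the windows shown, and each window reads along the gene's strand.
Acta1 (chr8:123894726-123895025, minus strand): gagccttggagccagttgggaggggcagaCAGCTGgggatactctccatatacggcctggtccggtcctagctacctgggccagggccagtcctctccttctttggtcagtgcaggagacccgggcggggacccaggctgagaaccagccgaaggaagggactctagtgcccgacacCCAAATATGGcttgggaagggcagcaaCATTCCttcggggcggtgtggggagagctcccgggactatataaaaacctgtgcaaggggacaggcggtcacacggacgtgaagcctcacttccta
Actc1 (chr2:114052826-114053125, minus strand): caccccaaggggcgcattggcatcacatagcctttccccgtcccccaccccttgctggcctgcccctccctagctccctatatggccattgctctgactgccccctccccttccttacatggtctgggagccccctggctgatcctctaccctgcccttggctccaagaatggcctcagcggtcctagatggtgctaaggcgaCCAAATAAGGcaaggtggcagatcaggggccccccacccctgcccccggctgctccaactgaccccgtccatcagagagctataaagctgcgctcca
Mybph (chr1:134193198-134193497, plus strand): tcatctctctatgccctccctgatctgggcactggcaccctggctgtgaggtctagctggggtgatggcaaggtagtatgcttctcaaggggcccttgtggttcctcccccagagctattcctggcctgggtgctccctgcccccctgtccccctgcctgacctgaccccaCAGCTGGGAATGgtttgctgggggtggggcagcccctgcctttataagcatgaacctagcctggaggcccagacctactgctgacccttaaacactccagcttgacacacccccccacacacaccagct
Ankrd1 (chr19:36119795-36120094, minus strand): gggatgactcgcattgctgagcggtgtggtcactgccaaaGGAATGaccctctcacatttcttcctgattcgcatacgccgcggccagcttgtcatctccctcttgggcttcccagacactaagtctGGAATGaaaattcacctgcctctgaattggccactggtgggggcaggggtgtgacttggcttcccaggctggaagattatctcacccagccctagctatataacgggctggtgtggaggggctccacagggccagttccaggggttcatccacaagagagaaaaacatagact
Ankrd2 (chr19:42035777-42036076, plus strand): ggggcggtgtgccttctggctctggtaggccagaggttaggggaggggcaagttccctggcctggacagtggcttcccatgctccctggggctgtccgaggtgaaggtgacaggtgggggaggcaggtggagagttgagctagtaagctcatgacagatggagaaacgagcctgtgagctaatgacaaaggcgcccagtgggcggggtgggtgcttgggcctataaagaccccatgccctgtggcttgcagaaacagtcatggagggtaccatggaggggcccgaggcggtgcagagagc
Acta1 and Actc1 each held a CArG box, starting 73 and 47 bases before the start, and Acta1 also held an E-box and an MCAT box. Mybph held an E-box directly followed by an MCAT box on the other strand, Ankrd1 held 2 MCAT boxes, and Ankrd2 held none of the 4 in this window. The motifs were not tested against the levels.

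Other genes of the sarcomere and its surroundings served as a comparison. Of 48 listed, 47 were tested (Mybpc3 did not pass the filter), 0 passed an unadjusted p of 0.05, and 25 were above 0, with a median of 0.011. The 3 with the largest fitted differences were Mybphl (-0.49 ± 0.38), the smooth muscle actin Actg2 (0.38 ± 0.28) and the small heat shock protein gene Hspb7 (0.33 ± 0.28), of which the first 2 had under 5 CPM on average. The log2 fold change of Mybphl was -0.81 without miR-501KO mouse 5 and -0.15 without Pax7Cre mouse 3. That of Actg2 was 0.21 without Pax7Cre mouse 2 and 0.67 without Pax7Cre mouse 4, and that of Hspb7 0.15 without miR-501KO mouse 4 and 0.62 without Pax7Cre mouse 2, and the higher value of each of these 2 had an unadjusted p under 0.05. Pax7Cre mouse 2 was the highest mouse in 18 of these 47 (38.3%, all genes 23.3%), against 35 of the 47 members. It was the lowest mouse in 14 of these 47, against 3 of the 47 members and 3142 of all 14410 genes tested.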

How the data were processed

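RNA of tibialis anterior muscle was sequenced from stranded mRNA libraries in 10 mice, 5 per group. The authors deposited raw counts of reads per gene in each mouse, which the submitters' processing notes place after STAR, featureCounts and R 3.5.1 on GRCm38.p5. The strand setting and the treatment of reads with several matches are not given in the sources used here, so antisense partners may share reads. TMM factors came from edgeR 4.0.16 (R 4.3.3), which kept 14410 of 25700 genes (filterByExpr with a minimum count of 10) and ran the quasi-likelihood test of miR-501KO against Pax7Cre with Benjamini-Hochberg adjustment, in a script tested on simulated data. DESeq2 1.42.0, other scalings and filters, a replicate block and fits without each mouse were alternatives. Confidence intervals are 95%. Each mouse had 18609222 to 24753258 counts. Mice of a group differed beyond counting noise (chi-square per degree of freedom at least 9.47), so the spread between 5 mice per group set the precision. Gene positions, exon lengths and untranslated regions are from GENCODE M21 (GRCm38), promoters and microRNAs from RefSeq. Of 47 genes, 24 overlap another annotated gene. The members and lists were chosen with earlier results of these data known. Values in every mouse are given for both genes of each pair, for Ttn, Neb, Des, Tpm1, Tpm2, Ankrd1, Csrp3, Nrap and Xirp1, for members with an unadjusted p under 0.05 and for the 5 with the largest log2 fold change, and Tpm3 and Ankrd2 were added after their values were seen. Each p sets the difference between the groups against the spread between these mice. For each gene edgeR estimates that spread with help from the other genes and takes it as the same in both groups.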

Additional observations from a re-analysis of the deposited data

Results flagged for a closer look

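Of 108 groups of 5 mice searched (each gene or ratio in each genotype), 16 held a mouse that lay far from the other 4 by Dixon's criterion, where chance gives about 1 in 20, or 5.4. In miR-501KO mouse 4 the values were high for Tmod4 (288 CPM, the others 219.5 to 232), Actn3 (1684 CPM, the others 1307 to 1379), Myoz1 (1219 CPM, the others 1039 to 1067), Pdlim5 (342 CPM, the others 257 to 281), Flnc (563 CPM, the others 369.5 to 423), Ankrd23 (957 CPM, the others 449.6 to 539), Smyd1 (391 CPM, the others 303 to 315), Xirp2 (901 CPM, the others 439 to 556) and Synm (156 CPM, the others 86.4 to 101). Pax7Cre mouse 2 was high for Tcap (1116 CPM, the others 226 to 379), Ankrd2 (116 CPM, the others 5.50 to 18.3) and Ankrd23 (1228 CPM, the others 297 to 471). Pax7Cre mouse 5 was high for Actc1 (4014 CPM, the others 2603 to 2796), and Pax7Cre mouse 4 was low for Myoz2 (93.2 CPM, the others 169 to 194). For the ratios on the log2 scale, Pax7Cre mouse 2 was low for Actc1 to Acta1 (-2.47, the others -1.71 to -1.50) and miR-501KO mouse 4 was low for Tmod1 to Tmod4 (-0.67, the others -0.43 to -0.37). These genes vary together, so the groups are not separate observations.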

How the results depend on the processing

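Most fitted differences were small beside the spread between mice, but not all. That of Mybph, 0.25, exceeded its SD of log2 CPM in each group (0.19 in Pax7Cre and 0.17 in miR-501KO), and that of the ratio of Lmod2 to Lmod3 exceeded its pooled SD. The choice of mice moved the fitted differences more than the choice of normalization. With DESeq2 size factors, TMM factors without the members, no filter, a stricter filter or the DESeq2 Wald test, 39 of the 47 genes stayed above 0 and 1 member passed an unadjusted p of 0.05, and the median over all genes moved by less than 0.1. Under every setting 0 genes passed after adjustment. Genes higher at an unadjusted p under 0.05 numbered 153 without a filter, 36 with at least 10 counts in every mouse, and 279 without Pax7Cre mice 2 and 4, against 55, and genes lower numbered 159 without a filter and 252 without those mice, against 96. Without those mice the members past the threshold numbered 8, of which 7 were higher and 1 lower, and the other sarcomere genes numbered 5. Leaving out 1 mouse at a time gave 39 to 267 genes higher, 59 to 242 lower, 0 to 9 members past the threshold, all of them higher, and 0 to 5 other sarcomere genes. The highest counts came without Pax7Cre mouse 2 (genes higher, members) or Pax7Cre mouse 4 (genes lower, other sarcomere genes).

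The sign of the fitted difference changed on leaving out a mouse in 29 of the 47 genes. Their ranges were Acta1 -0.017 to 0.26, Neb -0.057 to 0.19, Tpm1 -0.11 to 0.25, Tpm2 -0.081 to 0.14, Tmod1 -0.077 to 0.095, Tmod4 -0.20 to 0.13, Actn2 -0.041 to 0.15, Tcap -0.27 to 0.59, Myoz1 -0.10 to 0.23 and Myoz2 -0.077 to 0.16. In the next group they were Myot -0.11 to 0.31, Pdlim3 -0.0061 to 0.18, Pdlim5 -0.086 to 0.18, Flnc -0.036 to 0.19, Obsl1 -0.080 to 0.079, Myom1 -0.081 to 0.17, Myom2 -0.047 to 0.15, Myom3 -0.11 to 0.075, Mybpc1 -0.065 to 0.15 and Ankrd2 -0.41 to 1.57. The others were Ankrd23 -0.18 to 0.58, Fhl3 -0.034 to 0.24, Smyd1 -0.022 to 0.25, Unc45b -0.074 to 0.086, Klhl40 -0.023 to 0.12, Nrap -0.11 to 0.27, Xirp1 -0.19 to 0.23, Xirp2 -0.024 to 0.48 and Smpx -0.12 to 0.24. The genes whose sign did not change in these fits ran over Actc1 0.11 to 0.32, Tpm3 0.0057 to 0.10, Lmod2 -0.21 to -0.024, Lmod3 0.017 to 0.15, Actn3 0.019 to 0.36, Myoz3 0.036 to 0.50, Ldb3 0.024 to 0.38, Pdlim7 0.068 to 0.16, Csrp3 0.010 to 0.44, Ttn 0.073 to 0.31, Mybpc2 0.066 to 0.60, Mybph 0.19 to 0.31, Capn3 0.019 to 0.14, Ankrd1 -0.33 to -0.046, Fhl1 0.043 to 0.61, Klhl41 0.038 to 0.18, Des 0.015 to 0.16 and Synm 0.0019 to 0.58. Without Pax7Cre mice 2 and 4 the signs of Tmod1 (0.032), Myoz2 (-0.048), Obsl1 (0.058), Unc45b (0.078) and Xirp1 (0.071) changed.

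Equal mouse numbers were not treated as pairs. The deviations of same-numbered mice correlated at 0.451, -0.192, 0.189, -0.405 and 0.323 for numbers 1 to 5, and not every mouse correlated best with its own number. With the mouse number as a replicate block, 87 genes were higher, 0 members passed an unadjusted p of 0.05 in either direction, Mybph had a log2 fold change of 0.25 (unadjusted p = 0.0610), the median over the members was 0.10, and the signs of Tmod1 (0.012), Obsl1 (0.0028), Myom3 (0.0075) and Xirp1 (0.050) changed. Each member had at least 137 counts in every mouse, so counting noise was small beside the spread between mice.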
